A study of Mus musculus with 8 samples.

Results

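Cholesterol synthesis and its control in the liver were followed through 29 genes. They are 20 enzymes of the pathway (8 of the mevalonate and isoprenoid steps, 3 of the squalene and lanosterol steps and 9 of the sterol steps after lanosterol), 4 genes of the SREBP2 control circuit and 5 genes of sterol uptake, transport and export. They were picked by symbol. Each had 1 row among the 55421 transcripts of the deposited tables, and all 29 were among the 14506 transcripts that passed the filter on low counts and were tested. The data are poly(A) RNA sequencing of whole liver from 8 male C57BL/6J mice, bought at 4 weeks of age, kept on a diet with 45% of its calories from fat and sampled at 30 weeks. Times are zeitgeber times (ZT), counted in hours from lights on. On alternate days, between ZT8 and ZT10, mice received by gavage either sudachitin, a polymethoxyflavone, at 100 mg/kg (a cohort of 12) or its PBS vehicle (the control, a cohort of 11). The 4 groups were sudachitin ZT18 (night), control ZT18, sudachitin ZT6 (day) and control ZT6, with 2 mice in each. All of them had the same diet and the same gavage hours. Time of day therefore cannot be told apart from time since gavage. The labels do not say how the sequenced mice were chosen from the cohorts.

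Cholesterol is built from acetyl-CoA through mevalonate, which is turned into isoprenoid units, joined into squalene, closed into lanosterol and then trimmed to cholesterol. When sterol in the endoplasmic reticulum is low, SCAP carries the transcription factor SREBP2 (gene Srebf2) to the Golgi, where it is cut free and goes on to switch on the genes of the pathway, its own gene and Insig1 among them. When sterol is high, the INSIG proteins hold SCAP back, and the oxysterol receptors LXR drive genes of sterol export such as Abca1, Abcg5 and Abcg8. In the liver of rats and mice, cholesterol synthesis has a daily rhythm that is tied to feeding.

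SREBP2 binds sterol regulatory elements near gene starts, commonly beside sites for NF-Y and Sp1. The promoters of the members were searched for the letters of such sites. Whether those letters bear on the members' levels was not tested. A RefSeq promoter (build GRCm38.p6, 250 bases before to 50 bases after the start) was found for 25 of the 29 members; Fdps, Fdft1, Sqle and Stard4 are named only. Letters were searched on both strands. CCAAT, the NF-Y box, was in 21 of 25 member promoters (84%), against 38.8% of the 10410 tested genes with a promoter. GGGCGG, the Sp1 box, was in 20 of 25 (80%), against 62.6%. CACGTG, an E-box, was in 5 of 25 (20%), against 10.1%. TCACNCNA, a loose form of the sterol regulatory element, was in 4 of 25 (16%), against 9.91%, and the stricter TCACNCCAC, every match of which also holds the loose form, in 1 of 25 (4%), against 1.15%. A pair of AGGTCA copies in the same direction with 4 bases between, the textbook LXR element, was in 0 of 25, against 0% of all genes. Only exact copies were counted. Since no tested gene had a match, this search cannot tell whether members differ from other genes in LXR elements. The CCAAT box was thus the commonest of these letters among the members and the Sp1 box the commonest among all genes. A match is a description of the letters and not a measured binding site.

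The promoters of 4 members are shown because their genes had night-over-day estimates below 0, described below, and because they differ in what they hold. None of these genes passed in edgeR with all livers and the filter on low counts. Hmgcs1 has the stricter element, Msmo1 and Srebf2 the loose one, and Mvk none of either but 5 CCAAT boxes. Capitals mark CCAAT on either strand (ATTGG is CCAAT on the other strand) and the letters of the sterol element, and each run ends 1 base before the RefSeq start. They lie at chr13:119690171-119690350 (plus strand, Hmgcs1), chr5:114444089-114444268 (plus strand, Mvk), chr8:64733579-64733758 (minus strand, Msmo1) and chr15:82147089-82147268 (plus strand, Srebf2).
Hmgcs1: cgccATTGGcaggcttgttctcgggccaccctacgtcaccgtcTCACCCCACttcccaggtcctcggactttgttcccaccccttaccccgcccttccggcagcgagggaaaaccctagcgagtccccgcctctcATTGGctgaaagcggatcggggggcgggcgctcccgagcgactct
Mvk: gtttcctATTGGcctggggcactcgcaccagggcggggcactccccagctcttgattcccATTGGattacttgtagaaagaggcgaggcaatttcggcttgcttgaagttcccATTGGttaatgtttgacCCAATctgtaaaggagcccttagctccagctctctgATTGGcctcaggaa
Msmo1: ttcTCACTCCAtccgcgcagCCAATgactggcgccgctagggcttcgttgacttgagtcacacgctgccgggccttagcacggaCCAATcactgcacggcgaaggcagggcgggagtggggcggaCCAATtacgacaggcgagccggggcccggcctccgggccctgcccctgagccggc
Srebf2: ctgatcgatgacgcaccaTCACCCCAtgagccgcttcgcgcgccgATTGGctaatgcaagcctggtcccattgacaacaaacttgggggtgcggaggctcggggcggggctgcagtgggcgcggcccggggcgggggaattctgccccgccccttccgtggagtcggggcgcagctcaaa
The deposited transcripts start 113 bases from the RefSeq start for Hmgcs1, 37 for Mvk, 214 for Msmo1 and 88 for Srebf2. Abcg5 and Abcg8, whose proteins work as a pair, lie head to head with 109 bases between their starts, at chr17:84683012-84683120 (plus strand, the strand of Abcg8). That stretch is shown because it separates Abcg8, the member edgeR called, from its neighbour.
Abcg8: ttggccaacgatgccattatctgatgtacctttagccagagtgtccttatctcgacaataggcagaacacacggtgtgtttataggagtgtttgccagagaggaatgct
It holds none of the letters searched. The nearest CCAAT covers the first 5 transcribed bases of Abcg5 on the strand opposite to it, 114 to 110 bases before the start of Abcg8.

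**Figure D1:**
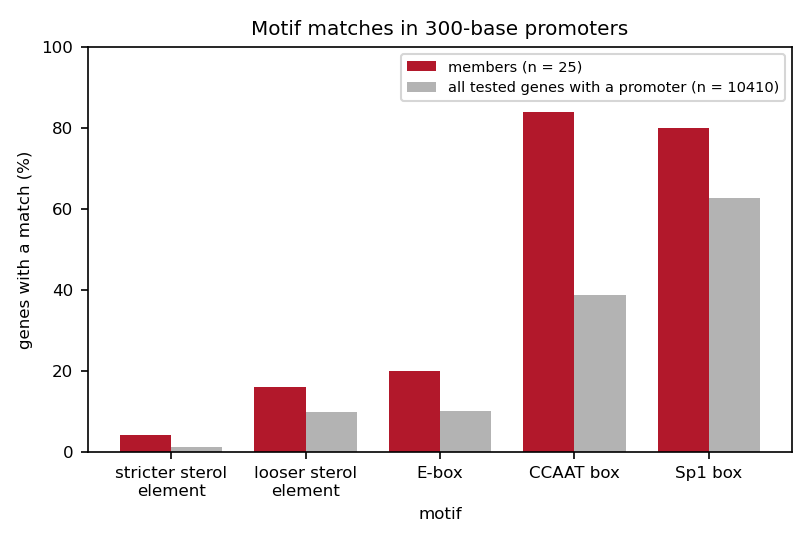
Share of genes (%) with at least 1 match of each motif in the RefSeq promoter (250 bases before to 50 bases after the start), for 25 members (red) and for 10410 tested genes with a promoter (grey). The CCAAT box shows the widest gap, 84% of members against 38.8% of all genes.

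Counts in exons came to 13914116 to 17759630.5 per library. Markers of hepatocytes (6 of 6 tested) summed to 77260 to 96840 CPM in every library, while those of 5 lymphocyte genes summed to 2.27 to 4.29 CPM. In whole liver, fewer cells of a type and less RNA per cell cannot be told apart. Library preparation did not keep strand, and 11 of the 29 members share exon bases with another gene, 9 of them with one on the opposite strand. For Ggps1, Lbr and Abcg5 the other gene's transcript is not the one in the deposited tables. The longest stretches were 945 of 1237 exon bases of Fdps with the same-strand Gm43738, 785 of 4227 of Scap with 5830462I19Rik and 774 of 3698 of Fdft1 with Ctsb, so reads of these pairs cannot be told apart there.

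Per exon length, the levels of the members spanned a wide range, and the 4 genes of the control circuit were spread over it. Mean FPKM over the 8 libraries was 86.7 for Insig2, 83.5 for Fdps, 65.7 for Insig1, 60.4 for Sc5d and 52.3 for Ebp. At the low end it was 0.866 for Ggps1 and 0.951 for Mylip, with Lbr the next. Scap averaged 11.9 FPKM and Srebf2 4.87 FPKM, both under Insig1 and Insig2.

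Many members were high in the same liver and low in the same other liver. The high one, mouse 1 of control ZT6, was the highest of all 8 in 19 of the 29 members and in 15 of the 20 enzymes, while it was the highest in 10.9% of all tested transcripts. The low one, mouse 1 of sudachitin ZT18, was the lowest of all 8 in 13 members and in 11 enzymes, against 11.9% of all tested transcripts. The mean log2 deviation of the 29 members from their own means over the 8 libraries was 0.49 in that liver of control ZT6 and -0.37 in that of sudachitin ZT18. In the other 6 livers it lay between -0.13 and 0.07.

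**Figure D2:**
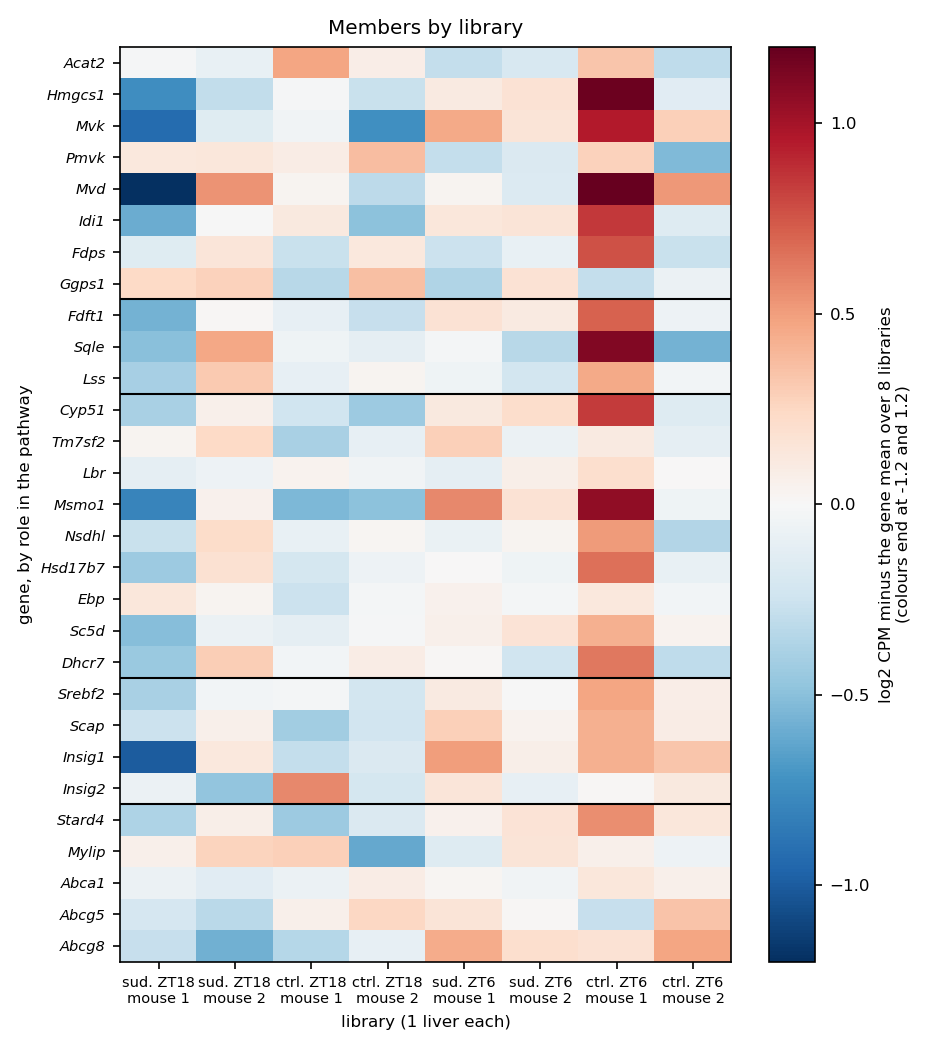
Log2 CPM of each member (rows, grouped by role) in each library (columns, 1 liver each), minus the gene's mean over the 8 libraries; colours end at -1.2 and 1.2. Mouse 1 of control ZT6 is red in most rows and mouse 1 of sudachitin ZT18 blue in most, and the enzymes show this more evenly than the transporters.

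These livers belong to different groups, so the 2 mice within each of those groups differed across much of the pathway. In sudachitin ZT18, 6 of 29 members and 2 of 20 enzymes were higher in mouse 1, with a median difference over the enzymes of -0.47 on the log2 scale. In control ZT18 it was 12 of 29 and 9 of 20. In sudachitin ZT6 it was 17 of 29 and 10 of 20. In control ZT6, 25 of 29 members and 19 of 20 enzymes were higher in mouse 1, with a median over the enzymes of 0.76. Over all tested transcripts mouse 1 was the higher in 48.9% to 50.9% within each group, so the lopsided counts of sudachitin ZT18 and control ZT6 were not shared by the libraries as a whole. Sqle, which makes squalene epoxide, had 74.3 CPM in mouse 1 of control ZT6 against 23.1 CPM in mouse 2, a ratio of 3.21. Hmgcs1, which makes HMG-CoA, had 664 against 267 CPM in the same mice, a ratio of 2.49. Mvd, which makes isopentenyl diphosphate from mevalonate diphosphate, had 5.63 CPM in mouse 1 of sudachitin ZT18 against 31.3 CPM in mouse 2. The labels give no feeding state, batch or collection order for single mice, so no such factor was compared with this difference.

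**Figure D3:**
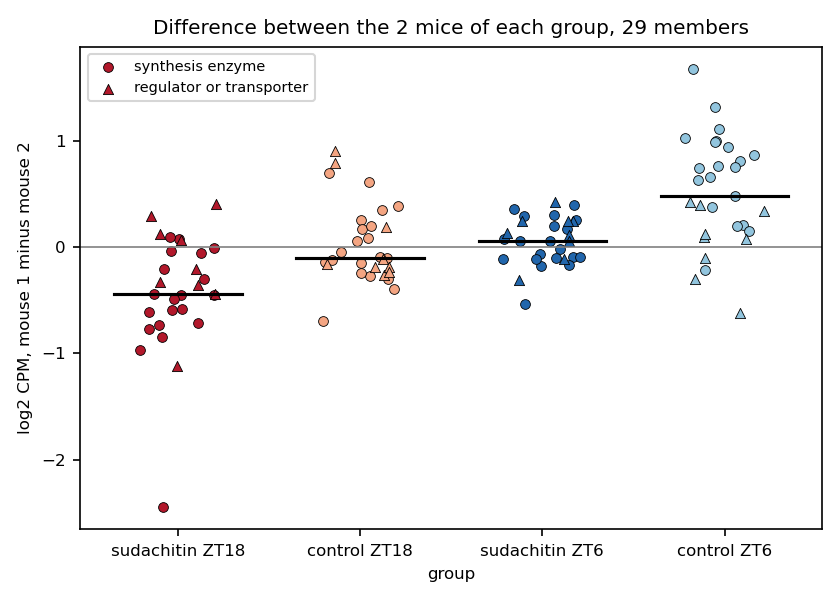
Log2 CPM of mouse 1 minus mouse 2 for the 29 members in each group (circles, enzymes; triangles, regulators and transporters; bar, median). The enzymes lie mostly below 0 in sudachitin ZT18 and above 0 in control ZT6, and around 0 in the groups between.

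The sterol exporter Abcg8 was called lower at night, and some settings also called enzymes and regulators of the pathway. Over both treatments, with 4 livers at ZT18 and 4 at ZT6, edgeR called 1 of 29 members, Abcg8, while it called 3.68% of all tested transcripts (534). With 1 of 29 called, the members were near the share of all transcripts. Abcg8 fell at ZT18 by 0.65 on the log2 scale (SE 0.12, adjusted p = 0.0216). The next smallest p-values did not pass: Mvk was at -0.91 (SE 0.23, adjusted p = 0.0641), Msmo1 at -0.91 (SE 0.26, adjusted p = 0.0901) and Scap at -0.42 (SE 0.13, adjusted p = 0.104). Of the 29 members, 25 lay below 0, with a median of -0.18, and 11 had an unadjusted p under 0.05, against 20.4% of all transcripts with such a p and an overall median of 0.02. DESeq2 called 6 members, namely Mvk, Msmo1, Scap, Insig1, Stard4 and Abcg8, all lower at ZT18, while it called 6.81% of all transcripts with an adjusted p. Limma on log2(FPKM + 0.1) called Abcg8 alone, again near the share of all transcripts (2.81%). EdgeR with no filter on low counts called 12 members, with 5.72% of all transcripts. Each refit that left out a liver kept only 1 liver of that group. Without mouse 2 of sudachitin ZT18 or of control ZT6, that was the low or the high liver described above. Abcg8 no longer passed without mouse 1 of sudachitin ZT18 (adjusted p = 0.0594), without mouse 1 of sudachitin ZT6 (0.0695) or without mouse 2 of control ZT6 (0.074). Without mouse 2 of sudachitin ZT18 edgeR called 5 members (Mvk, Mvd, Msmo1, Insig1 and Abcg8), with 2.77% of all transcripts. Without mouse 1 of control ZT18 it called Mvk and Abcg8, with 6.99% of all transcripts. With 2 of 29 called, the members were near that share. Without mouse 2 of control ZT6 it called Hmgcs1 alone, with 1.3% of all transcripts.

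**Figure D4:**
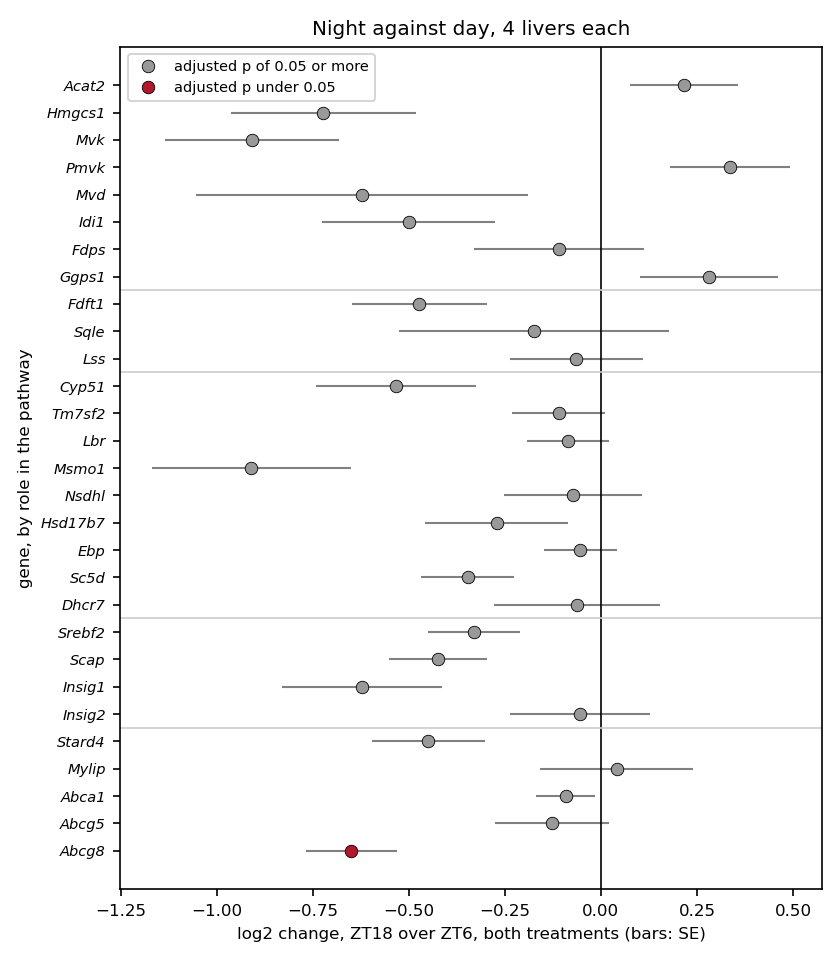
Log2 change at ZT18 over ZT6 across both treatments for the 29 members (points, estimate from edgeR; bars, SE; red, adjusted p under 0.05), ordered by role. Abcg8, at -0.65, is the red point, and 25 of the 29 points lie left of 0.

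The livers of the 2 times were fully separate for a few members. Over both treatments, all 4 ZT18 livers lay below all 4 ZT6 livers for 4 members (Mvk, Sc5d, Srebf2 and Abcg8), against 7.02% of all tested transcripts, and above them for 0, against 5.99%. Within sudachitin, both ZT18 livers lay below both ZT6 livers for 11 members (background 22.3%) and above for 3, namely Acat2, Pmvk and Ggps1 (23.5%). Within control, they lay below for 11 (21.1%) and above for 0 (21.3%). In both treatments at once they lay below for 7 members, namely Mvk, Fdft1, Cyp51, Msmo1, Sc5d, Srebf2 and Abcg8, against 9.55% of all transcripts, and above for 0, against 8.82%. With 2 mice a group such separation is common, as these shares show.

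Within a single treatment no member passed in edgeR with the filter on low counts. In sudachitin it called 0 of 29 members, against 0.186% of all transcripts; 2 members had an unadjusted p under 0.05, against 12.6% of all transcripts, and DESeq2 called 1, Abcg8, with 2.03% of all transcripts. The smallest p-values were those of Abcg8 at -0.75 (SE 0.17, adjusted p = 0.135), Mvk at -0.81 (SE 0.33, adjusted p = 0.37), Sc5d at -0.39 (SE 0.18, adjusted p = 0.422) and Insig1 at -0.63 (SE 0.31, adjusted p = 0.444). In control it called 0 of 29, against 0.524%; 7 had an unadjusted p under 0.05, against 12.9% of all transcripts, and DESeq2 called 1, Stard4, with 2.21% of all transcripts. There the smallest were Scap at -0.59 (SE 0.17, adjusted p = 0.22), Stard4 at -0.66 (SE 0.19, adjusted p = 0.223), Abcg8 at -0.55 (SE 0.17, adjusted p = 0.242) and Msmo1 at -1.12 (SE 0.37, adjusted p = 0.266). Below 0 were 18 members in sudachitin, with a median of -0.16, and 24 in control, with a median of -0.39, while the medians of all transcripts were 0.00677 and 0.0205. Leaving out mouse 2 of sudachitin ZT18 moved the median in sudachitin to -0.34 and leaving out mouse 1 to -0.04, and leaving out mouse 1 of control ZT6 moved that in control to -0.06.

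Of the 8 mevalonate and isoprenoid enzymes, 5 lay below 0 for ZT18 over ZT6 and 3 above, and none passed in edgeR. Mvk, mevalonate kinase, had 5.75 and 9.92 CPM in sudachitin ZT18 and 10.7 and 6.53 CPM in control ZT18, against 15.1 and 12.3 CPM in sudachitin ZT6 and 21.4 and 13.5 CPM in control ZT6. Every night liver lay below every day liver, although the difference did not pass in edgeR. Hmgcs1 had 175 and 239 CPM in sudachitin ZT18 and 290.4 and 243 CPM in control ZT18, against 317 and 330.1 CPM in sudachitin ZT6 and 664 and 267 CPM in control ZT6. Its night and day livers overlapped through mouse 2 of control ZT6. Hmgcs1 was at -0.72 (SE 0.24, adjusted p = 0.135), Mvd at -0.62 (SE 0.43), Idi1, which interconverts the isoprenoid units, at -0.50 (SE 0.23) and Fdps at -0.11 (SE 0.22). Pmvk, the next kinase after Mvk, was at 0.34 (SE 0.16, unadjusted p = 0.0585) for ZT18 over ZT6, Ggps1, which makes geranylgeranyl diphosphate, was at 0.28, and Acat2, which joins acetyl-CoA units, was at 0.22. These 3 are the ones above 0.

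Of the 3 squalene and lanosterol enzymes, all lay below 0 for ZT18 over ZT6, and the values were uneven. Fdft1, squalene synthase, was at -0.47 (SE 0.18, adjusted p = 0.172). Sqle was at -0.17 and Lss, which closes the ring, at -0.06. The split between the 2 mice of control ZT6 was widest for Sqle, whose lowest and highest values of all 8 livers were both in that group.

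All 9 sterol enzymes after lanosterol lay below 0 for ZT18 over ZT6, with a median of -0.11. Msmo1, a sterol methyl oxidase, had 48.9 and 87.9 CPM in sudachitin ZT18 and 58.3 and 60.2 CPM in control ZT18, against 126 and 95.6 CPM in sudachitin ZT6 and 177 and 81.4 CPM in control ZT6. The night and day livers were separate within each treatment, and overlapped across treatments. Cyp51, the lanosterol demethylase, was at -0.53 (SE 0.21, adjusted p = 0.192) and Sc5d, which puts in the C5 double bond, at -0.35 (SE 0.12, adjusted p = 0.151). Nsdhl and Hsd17b7, which act with Msmo1 to take off the C4 methyl groups, were at -0.07 and -0.27. Lbr and Tm7sf2, the pair of sterol C14 reductases, were at -0.09 and -0.11, and Ebp and Dhcr7, which act late, at -0.05 and -0.06.

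All 4 genes of the control circuit lay below 0 for ZT18 over ZT6, and none passed in edgeR. Srebf2 had 40.1 and 51.4 CPM in sudachitin ZT18 and 51.6 and 45.1 CPM in control ZT18, against 56.6 and 52.2 CPM in sudachitin ZT6 and 73.1 and 55.5 CPM in control ZT6. The night livers all lay below the day livers, by 0.33 on the log2 scale (SE 0.12), which did not pass (adjusted p = 0.162). Scap had 88.9 and 111 CPM in sudachitin ZT18 and 79.5 and 90.7 CPM in control ZT18, against 129.7 and 109.6 CPM in sudachitin ZT6 and 143 and 113 CPM in control ZT6, so that 1 night liver of sudachitin lay above 1 day liver.

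Insig1, itself a gene that SREBP2 switches on, had 183 and 398 CPM in sudachitin ZT18 and 299 and 324 CPM in control ZT18, against 516 and 384 CPM in sudachitin ZT6 and 491 and 460.0 CPM in control ZT6. Its difference was -0.62 (SE 0.21, adjusted p = 0.136), and the sudachitin ZT18 pair was the widest. Insig2 had 224 and 169.6 CPM in sudachitin ZT18 and 351 and 203 CPM in control ZT18, against 259.9 and 219.6 CPM in sudachitin ZT6 and 237 and 255 CPM in control ZT6. Its highest liver was mouse 1 of control ZT18, and its time difference was -0.06 (SE 0.18), so the 2 INSIG genes did not follow the same order of livers.

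Among the transporters, Abcg8 and Abcg5 encode the partners of the pump that sends sterols into bile, and edgeR called Abcg8 lower at night. Abcg8 had 67.7 and 55.2 CPM in sudachitin ZT18 and 65.0 and 76.7 CPM in control ZT18, against 112 and 94.6 CPM in sudachitin ZT6 and 92.7 and 114 CPM in control ZT6. Night and day livers were separate in both treatments. Abcg5 had 57.1 and 52.4 CPM in sudachitin ZT18 and 68.7 and 78.1 CPM in control ZT18, against 73.0 and 66.4 CPM in sudachitin ZT6 and 54.1 and 83.2 CPM in control ZT6. Its day and night livers were separate in sudachitin and overlapped in control, and its time difference over both treatments was -0.13 (SE 0.15). Whether the time differences of the pair differ from each other was not tested. The deposited transcripts of the pair share no base, but 40 exon bases of that of Abcg5 lie in another annotated transcript of Abcg8 on the opposite strand. Stard4, a carrier of sterol between membranes, was at -0.45 (SE 0.15, adjusted p = 0.128), while Abca1, which loads cholesterol onto lipoprotein particles, was at -0.09 and Mylip, a ubiquitin ligase that LXR switches on, at 0.04.

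**Figure D5:**
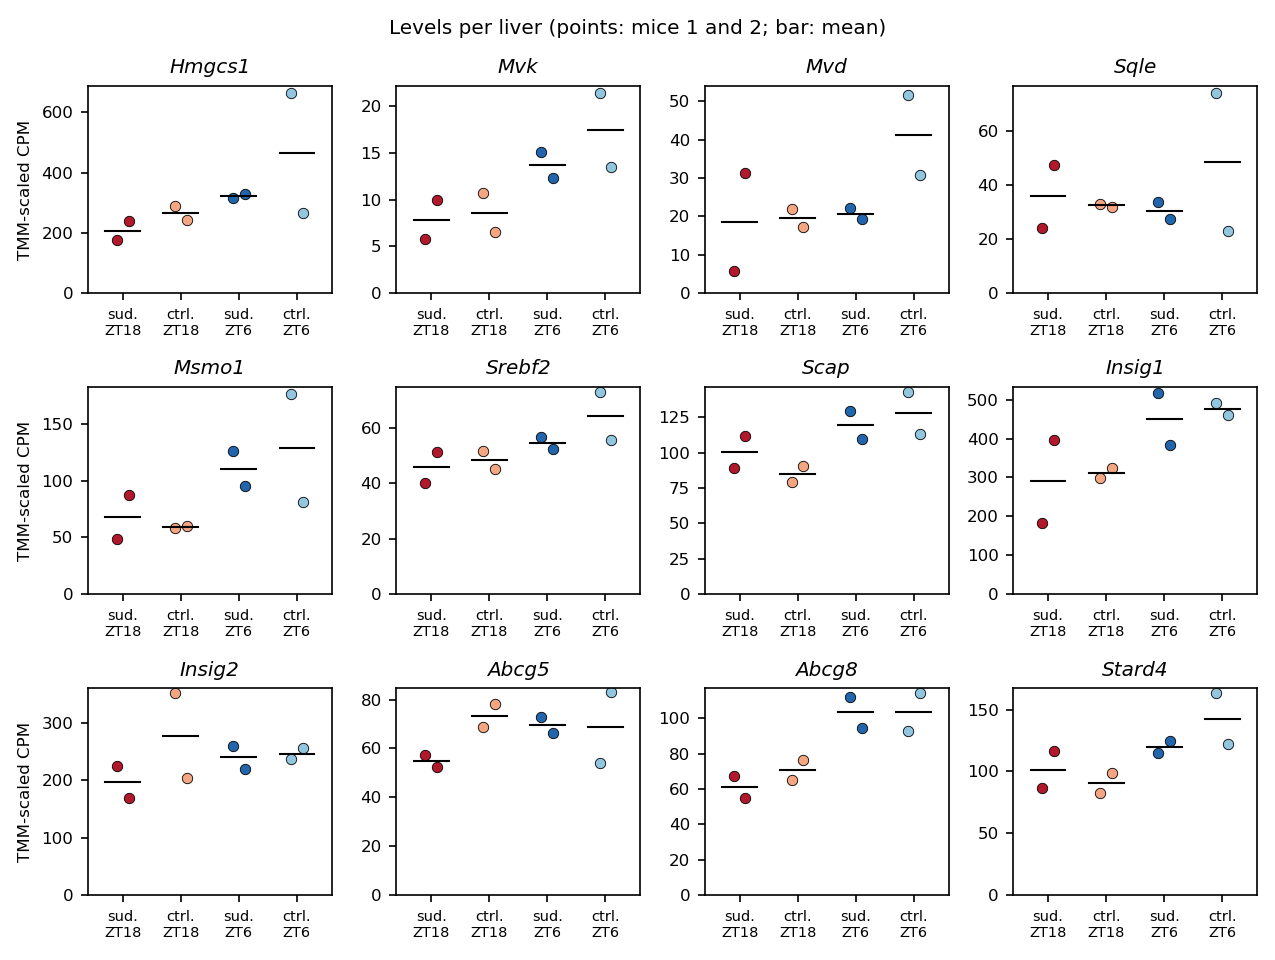
TMM-scaled CPM of 12 members in each liver (points, mouse 1 left and mouse 2 right; bar, mean of 2), by group. For Mvk, Srebf2 and Abcg8 every ZT18 point lies below every ZT6 point, and for Hmgcs1, Sqle and Mvd one mouse of control ZT6 or sudachitin ZT18 sits away from the other.

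Sudachitin against control gave no member that passed at ZT6 in edgeR with the filter on low counts. EdgeR called 0 of 29 members and 0% of all tested transcripts; 0 members had an unadjusted p under 0.05, against 2.12% of all transcripts, and DESeq2 and limma called 0 members, with 0.0246% and 0% of all transcripts. Of the members, 26 lay below 0, with a median of -0.22, beside a median of -0.00503 over all transcripts. The smallest p-values were those of Mvd at -0.998 (SE 0.59, unadjusted p = 0.126), Fdps, which makes farnesyl diphosphate, at -0.50 (SE 0.30, unadjusted p = 0.126), Lss at -0.36 (SE 0.24, unadjusted p = 0.165) and Hmgcs1 at -0.52 (SE 0.35, unadjusted p = 0.175), and the adjusted p was 1 for each. The common direction rested on 1 control liver: without mouse 1 of control ZT6 the median was 0.06 with 10 members below 0. Of the 4 named members, Fdps and Hmgcs1 then stood at 0.10 and 0.28, while Mvd and Lss stayed below 0, at -0.58 and -0.10. With no filter on low counts edgeR called Mvd, with 0.235% of all transcripts. Without mouse 2 of control ZT6 the median was -0.51. Mvd had 22.1 and 19.2 CPM in sudachitin ZT6, against 51.7 and 30.9 CPM in control ZT6, and was one of 3 members, with Lss and Abca1, whose sudachitin livers both lay below both control livers (background 16.3%); in 0 members did they lie above (15.4%).

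Markers of other states also differed between these livers. The 7 acute-phase genes, made by the liver in inflammation, summed to 6039 and 4875 CPM in sudachitin ZT6, against 3429 and 3032 CPM in control ZT6. Hp weighed much in this sum, with 4066 and 3505 CPM in sudachitin ZT6, against 2885 and 2575 CPM in control ZT6. At ZT18 the sum was 4812 and 3192 CPM in sudachitin and 4868 and 2928 CPM in control, so mouse 1 of each group was high there too. The 8 macrophage genes summed to 133 and 213 CPM in sudachitin ZT6, against 94.8 and 117 CPM in control ZT6. At ZT18 they summed to 120 and 128 CPM in sudachitin and 151 and 85.7 CPM in control. For sudachitin against control at ZT6, all tested genes of both lists lay above 0 and none of them passed. No gene of either list was at 0 in all libraries. The part of these lists in the members' values was not tested.

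At ZT18 sudachitin and control livers gave no call among the members and no common direction. EdgeR called 0 of 29, against 0.0138% of all transcripts (2); 0 members had an unadjusted p under 0.05, against 6.51% of all transcripts, and DESeq2 called 0, with 0.287% of all transcripts. Below 0 were 16 members, with a median of -0.06, beside -0.00207 over all transcripts. The smallest p-values were those of Tm7sf2 at 0.38 (SE 0.17, adjusted p = 0.772), Abcg5 at -0.42 (SE 0.19, adjusted p = 0.772), Insig2 at -0.49 (SE 0.25, adjusted p = 0.789) and Ebp at 0.22 (SE 0.13, adjusted p = 0.816). Both sudachitin livers lay below both control livers for Acat2, Hmgcs1, Lbr, Abca1 and Abcg5, 5 members against 15.5% of all transcripts, and above for Tm7sf2 and Ebp, 2 members against 15.3%. Tm7sf2 had 107 and 124 CPM in sudachitin ZT18, against 80.0 and 98.4 CPM in control ZT18. Leaving out mouse 1 of sudachitin ZT18 turned the median to 0.20 with 9 members below 0, and leaving out mouse 2 gave -0.28 with 24 below. Mouse 1 of control ZT18 stood apart in genes of sex-biased liver expression: the 11 male-biased genes summed to 3807 CPM there and to 4529 to 10330 CPM in the other livers, and the 10 female-biased genes, 3 of which were tested, to 412 CPM there and 17.7 to 57.2 CPM in the others. Single genes weighed much in these sums, with Mup20 at 2507 CPM and Cyp2b9 at 309 CPM in that liver. Male-biased Cyp4a12a and Elovl3 were lower still in mouse 2 of sudachitin ZT6. Female-biased Cyp17a1 was higher in mouse 2 of control ZT18 and mouse 1 of sudachitin ZT18. The other tested genes of both lists had their lowest (male-biased) or highest (female-biased) value in mouse 1 of control ZT18. Without that liver the members' median was -0.03 with 16 members below 0, Insig2 stood at -0.04, Tm7sf2 at 0.24, Abcg5 at -0.51 and Ebp at 0.11. Without mouse 2 of control ZT18 the median was -0.04, and Insig2 stood at -0.84, Tm7sf2 at 0.53, Abcg5 at -0.33 and Ebp at 0.35. The difference of Insig2 therefore rested on its level in mouse 1 of control ZT18.

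Over both times the 4 sudachitin livers did not separate from the 4 control livers for any member. EdgeR called 0 of 29 members, against 0.0207% of all transcripts (3); 1 member had an unadjusted p under 0.05, against 4.41% of all transcripts, and DESeq2 called 0, with 0.123% of all transcripts. The smallest p-values were those of Acat2 at -0.32 (SE 0.14, unadjusted p = 0.0498), Tm7sf2 at 0.25 (SE 0.12), Hmgcs1 at -0.45 (SE 0.24) and Abca1 at -0.11 (SE 0.08), with an adjusted p of 0.996 for each. All 4 sudachitin livers lay below all 4 control livers for 0 members (background 0.869%) and above for 0 (0.958%). Below 0 were 24 members, with a median of -0.15, and without mouse 1 of control ZT6 it was 13, with a median of 0.04.

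The interaction asked whether the night-to-day difference was another in sudachitin than in control livers. EdgeR called 0 of 29 members and 0% of all transcripts; 0 members had an unadjusted p under 0.05, against 3.78% of all transcripts, and DESeq2 called 0, with 0.12% of all transcripts. Above 0, meaning that the ZT18 minus ZT6 difference was the higher in sudachitin, were 22 members, with a median of 0.20, and 18 of the 20 enzymes. The smallest p-values were those of Abcg5 at -0.44 (SE 0.27, unadjusted p = 0.14), Stard4 at 0.42 (SE 0.27, unadjusted p = 0.158), Ebp at 0.26 (SE 0.19, unadjusted p = 0.199) and Scap at 0.34 (SE 0.24, unadjusted p = 0.202), with an adjusted p of 0.998 for each. Without mouse 1 of control ZT6 the median was -0.07, without mouse 2 of control ZT6 it was 0.49, and without mouse 2 of sudachitin ZT18 it was -0.01.

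Other genes around the pathway gave 1 call. Of 14 tested genes of sterol transport, esterification and oxysterols, Stard5, a sterol-binding protein, rose at ZT18 over both treatments by 0.37 (SE 0.07, adjusted p = 0.0305). It had 131 and 136 CPM in sudachitin ZT18 and 124 and 119 CPM in control ZT18, against 102 and 96.3 CPM in sudachitin ZT6 and 97.0 and 98.9 CPM in control ZT6, so the times did not overlap. In the same comparison none passed of 11 genes of the isoprenoid branch (smallest p for Dhdds, which makes dolichol precursors, -0.39, adjusted p = 0.064), of 10 genes of SREBP processing and sterol-regulated degradation (Rnf145, a ubiquitin ligase, 0.77, adjusted p = 0.0764), of 8 other SREBP-responsive genes (Fads2, a fatty acid desaturase, 0.53, adjusted p = 0.0984) or of 5 genes of LXR and its other targets (Nr1h2, LXR beta, -0.32, adjusted p = 0.0543). Of the 8 other SREBP-responsive genes 6 lay above 0, with a median of 0.31, where 25 of the 29 members lay below.

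Between sudachitin and control none of these 5 lists had a gene that passed at either time. At ZT6 the smallest p of the 8 other SREBP-responsive genes, all of which lay below 0, was that of Aacs, which activates acetoacetate for lipid synthesis. Aacs had 46.0 and 50.6 CPM in sudachitin ZT6, against 152 and 132 CPM in control ZT6 (-1.55, SE 0.38, unadjusted p = 0.00278, adjusted p = 1). Mmab and Acly also had both control ZT6 livers above both sudachitin ZT6 livers (16.3% of all transcripts did). For Tmem97 and Fads2, mouse 2 of control ZT6 lay between the sudachitin ZT6 livers. For Acss2, Rdh11 and Fads1 it lay below both of them (Acss2, 159.7 CPM against 224 and 186 CPM). At ZT18 the smallest p-values were those of Vldlr, a lipoprotein receptor (-2.14, adjusted p = 0.59), and Srebf1, the SREBP1 gene (-1.03, adjusted p = 0.708). Srebf1 had 237 and 291 CPM in sudachitin ZT18, against 467 and 609.6 CPM in control ZT18. Both of its control livers lay above both sudachitin livers at that time.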

How the data were processed

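Estimated counts over exons, raw and in multiples of 0.5, and FPKM (recomputed from those counts, exon length and library total to within 4e-11) were deposited by the authors for mouse genome GRCm38 (mm10). Trimmomatic 0.39, STAR 2.7.2a and HOMER are named per the submitters' processing notes; the sources used here do not give the strand setting or the handling of reads with several positions. Counts were rounded (0.5 up) and tested in R 4.3.3 with edgeR 4.0.16 (TMM, default filter by group, quasi-likelihood F test, Benjamini-Hochberg over 14506 transcripts, threshold 0.05); the SE is the log2 change divided by the square root of F. Comparisons within a time or treatment and the interaction used 4 group means; those over both used treatment plus time. CPM are TMM-scaled. Replicates are separate mice per the titles. Alternatives were DESeq2 1.42.0, limma 3.58.1 on log2(FPKM + 0.1) and log2(FPKM + 1), other size factors, no filter, only the groups compared, a replicate block and leaving out each library. Coordinates are 1-based; overlaps come from GENCODE mouse release 21, in which 54890 of 54976 matched transcripts had the same coordinates. Members and lists were chosen with earlier results of these data known. In each comparison the members that passed, or else the 4 with the smallest p, are named; per-liver values of other genes, and the enzymes given by role, were chosen after values were seen. The fit was tested on simulated data with changes larger than any of the members', so that check does not bear on changes of their size. Some genes of the pathway are not reported here.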

Additional observations from a re-analysis of the deposited data

How the results depend on the processing

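The members' median changed sign in 4 of the 7 comparisons, in each case where a liver was left out. Other size factors, limma and the replicate block left the counts of called members as they were, with 0 in the 6 other comparisons and 1 under the block for ZT18 against ZT6 over both treatments. The labels do not say whether a replicate number pairs mice. The correlations of same-numbered deviations between groups ran from -0.204 to 0.281, which cannot show whether mice were paired. DESeq2 called 6 members in that comparison (6.81% of all transcripts with an adjusted p), 1 in control (2.21%) and 1 in sudachitin (2.03%). With no filter on low counts edgeR called 12 there (5.72% of all transcripts), 12 in control (3.1%), 5 in sudachitin (3.02%), 1 for the interaction (0.91%), 1 for sudachitin against control at ZT6 (0.235%) and 2 over both times (1.09%). When each replicate was left out in turn, the members' median log2 change ran from -0.507 (without control ZT6 replicate 2) to 0.0598 (without control ZT6 replicate 1) for sudachitin against control at ZT6, and from -0.276 to 0.203 (without sudachitin ZT18 replicate 2 and replicate 1) at ZT18. For ZT18 against ZT6 it ran from -0.608 to -0.0565 in control (without control ZT6 replicate 2 and replicate 1) and from -0.425 to -0.103 over both treatments (without sudachitin ZT18 replicate 2 and replicate 1). For the interaction it ran from -0.0674 to 0.494 (without control ZT6 replicate 1 and replicate 2). At ZT6, Fdps ran from -0.928 to 0.101 and Hmgcs1 from -1.04 to 0.278, both positive without control ZT6 replicate 1. Over both treatments the count of called members at ZT18 against ZT6 ran from 0 to 5 in these refits. The share of all transcripts called ran from 1.09% to 6.99% (without sudachitin ZT6 replicate 1 and control ZT18 replicate 1). The causes were not tested. Exon counts ran from 13914116 in control ZT6 replicate 1 to 17759630.5 in control ZT18 replicate 1, and sudachitin ZT18 replicate 1 had 17483095. The part of depth was not tested either, and 2 mice a group limit what could be called.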
